A study of Mus musculus with 6 samples.

Results

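The 36 genes described here encode lysosomal enzymes, lysosomal membrane proteins and regulators, subunits of the vacuolar proton pump, and core autophagy proteins. They were taken by gene symbol from a list of names that was chosen with earlier results of these data known. All 36 were found among the 30071 genes of the deposited table and had enough counts to be tested. They comprise 14 hydrolases, 5 membrane proteins and regulators, 11 proton pump subunits and 6 autophagy genes. Expression was measured by poly(A) RNA-seq in the mouse pre-osteoblast line MC3T3-E1, grown on nano/microstructured polyetheretherketone (PEEK), a polymer of bone implants. The cells were grown on PEEK with supernatant of the mouse macrophage line RAW264.7 (3 libraries) or on PEEK alone (3 libraries). All 6 libraries share the cell line and the PEEK surface. The titles speak of biological replicates without naming cultures, so p-values reflect only the scatter among these 6 libraries, which may in part be technical; the sources used here do not say how the RAW264.7 cells were grown.

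Lysosomes degrade proteins, glycans and lipids delivered by endocytosis or by autophagy, in which a membrane encloses part of the cytoplasm and then fuses with the lysosome. Their hydrolases work at acid pH, which is kept by a rotary ATPase with a soluble V1 sector that splits ATP and a membrane V0 sector that carries protons. Many of these genes share promoter elements with the core CACGTG that are bound by the transcription factor TFEB, and osteoblasts use the same organelles while they secrete and turn over bone matrix.

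Total counts were 74927500 to 80861720 with supernatant and 76895736 to 82803173 on PEEK alone. Macrophage markers could be read for 9 of 12 genes. Their summed level was 2.06 to 2.65 FPKM (fragments per kilobase of transcript and 1000000 mapped fragments) with supernatant and 1.91 to 3.52 FPKM on PEEK alone. Of the 9, 8 stayed below 1 FPKM in every library, and Ptprc, the pan-leukocyte marker, had at most 4 counts. The exception was Cd68, at 0.95 to 2.55 FPKM. Only Fcgr3 among them had groups that lay apart, higher with supernatant. It had 0.253, 0.255 and 0.307 FPKM in replicates 1, 2 and 3 with supernatant, against 0.183, 0.134 and 0.0966 FPKM on PEEK alone. Its log2 fold change was 0.97 (SE 0.42, edgeR adjusted p = 0.555). Osteoclast markers (7 of 10 read) summed to 4.44 to 5.18 FPKM with supernatant and 5.77 to 6.91 FPKM on PEEK alone, most of it Nfatc1. Nfatc1, a transcription factor also used by other cell types, was at 4.24, 3.94 and 4.18 FPKM with supernatant, against 6.27, 5.21 and 5.10 FPKM on PEEK alone, and thus differed in the direction of most members. Its log2 fold change was −0.44 (SE 0.10), with an edgeR adjusted p of 0.266 and a DESeq2 adjusted p of 0.0288, and its part in the members' values was not tested. Atp6v0d2, the pump subunit typical of osteoclasts, had 0 to 10 counts. Osteoblast markers summed to 629 to 918 FPKM with supernatant and 810 to 925 FPKM on PEEK alone, mostly Col1a2 and Spp1. Of the 11 osteoblast markers 3 (Ibsp, Pth1r and the late marker Bglap) were below 1 FPKM in every library, and Col1a1 had 1.76 to 3.54 FPKM.

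Replicate 1 stood apart within both groups. The chi-square per gene against its fellow libraries was 102 and 112 for replicate 1 with supernatant, where the other two differed by 34.7, and 60.3 and 56.3 for replicate 1 on PEEK alone, where the other two differed by 25.4. Some osteoblast markers set replicate 1 with supernatant apart as well, in both directions. Alpl, which encodes tissue-nonspecific alkaline phosphatase, was at 20.6, 5.95 and 4.91 FPKM in replicates 1, 2 and 3 with supernatant, against 3.93, 7.08 and 6.46 FPKM on PEEK alone. Sp7, an osteoblast transcription factor, was at 8.86, 3.32 and 2.69 FPKM with supernatant, against 4.39, 3.77 and 3.60 FPKM on PEEK alone. Spp1 went the other way, at 114.1, 214.9 and 240.4 FPKM with supernatant, against 219.9, 209.4 and 192.6 FPKM on PEEK alone. The edgeR calls over all genes were 2 higher and 1 lower with all 6 libraries, and 133 higher and 66 lower without replicate 1 with supernatant. Member counts are therefore also given without single libraries.

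Compared per unit of transcript length, the genes covered a range from 0.778 FPKM to 455 FPKM. Psap, whose product is cut into the saposins that help lipid hydrolases, was the most abundant at a mean of 455 FPKM over 6 libraries and ranked 52 of all genes in the table. Lamp1, a heavily glycosylated protein of the lysosomal membrane, followed with 270.0 FPKM and rank 91. The cargo receptor gene Sqstm1 had 134 FPKM, the aspartic protease gene Ctsd 127 FPKM and the autophagosome gene Gabarap 119 FPKM. Among hydrolases Ctsd was followed by Gaa, the glycogen-degrading acid glucosidase, with 89.6 FPKM, and the lowest were Gla with 5.85, Neu1 with 5.11 and Ctso with 3.24 FPKM. The 11 pump subunits lay closer together, between 8.67 FPKM for Atp6v1d and 47.4 FPKM for Atp6v0d1. Tfeb itself was at 0.769 ± 0.0779 FPKM with supernatant and 0.786 ± 0.106 FPKM on PEEK alone (SD, n = 3 each), the lowest of the 36 genes and the 1 below 1 FPKM.

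**Figure D1:**
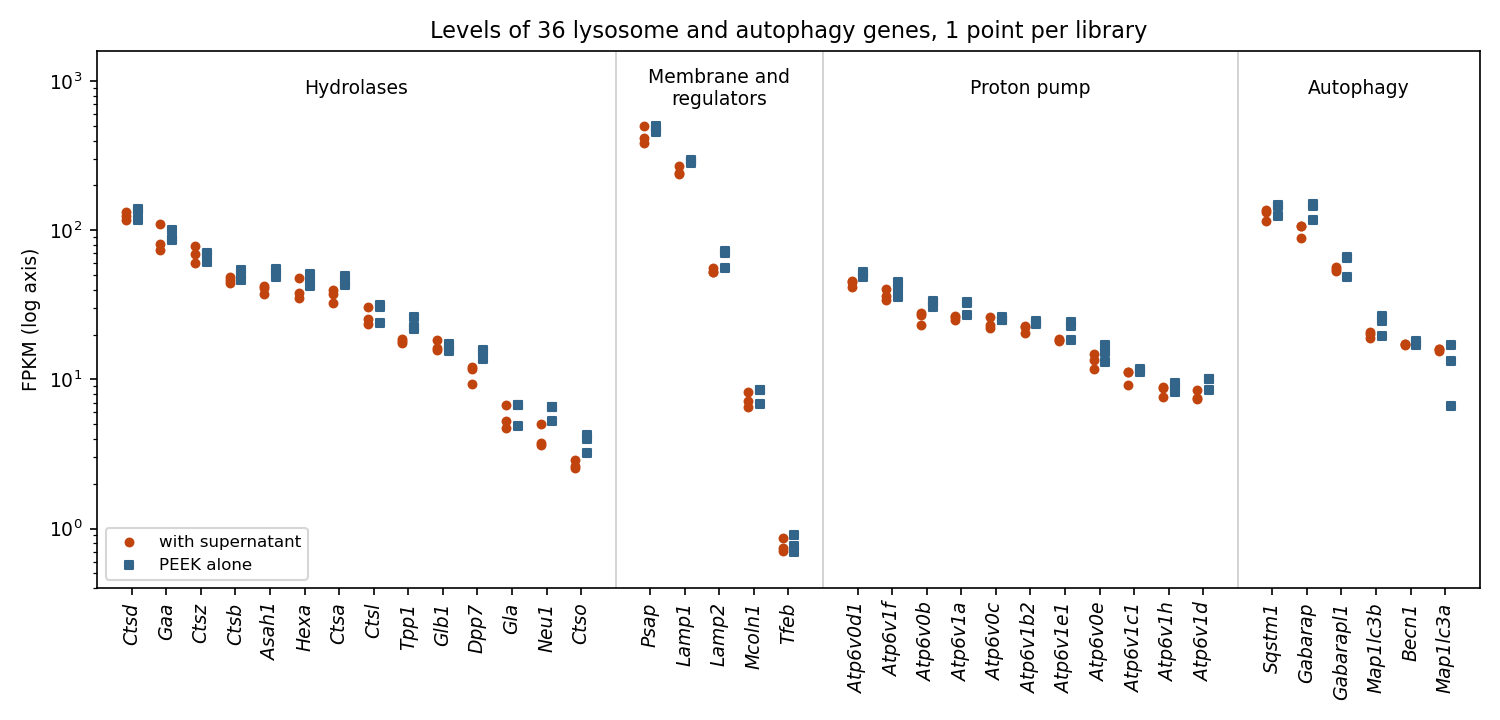
FPKM on a log axis for each of the 36 genes, by gene group and sorted by mean level, with circles for the 3 libraries with supernatant and squares for the 3 on PEEK alone. Psap and Lamp1 stand highest, Tfeb lowest below 1 FPKM, and the pump subunits lie between about 8.67 and 47.4 FPKM.

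Because TFEB binds elements with the core CACGTG, the promoter entries of the genes were read for that core and for its extension TCACGTGA. Each entry runs from 250 bases before to 50 bases after a start site (RefSeq, GRCm38.p6), and 29 of the 36 genes had at least 1. Both strings read the same on both strands, and every TCACGTGA also counts as a CACGTG. The core was present for 13 of 29 genes (44.8%), against 8.09% of the 27025 genes with an entry. TCACGTGA was present for 8 of 29 (27.6%), against 1.12% of all genes with an entry. These backgrounds were not limited to genes expressed in these cells, so the shares are not matched for expression. By group, CACGTG occurred in 7 of 12 hydrolases, 2 of 5 membrane and regulator genes, 4 of 8 pump subunits and 0 of 4 autophagy genes. The genes without an entry were Ctsb, Asah1, Atp6v1b2, Atp6v1c1, Atp6v1h, Map1lc3a and Becn1. A match describes the letters in this window and not binding.

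These are the stretches before the start site that hold TCACGTGA, shown in capitals, 5′ to 3′ on the gene's strand in GRCm38.p6. They come from the hydrolases Dpp7, Ctsa, Ctsd and Gla, the lysosomal calcium channel gene Mcoln1 and the catalytic pump subunit gene Atp6v1a. In Ctsa a second copy lay just after the start site, and in Atp6v0d1 and Atp6v0e the match crossed or followed the start site, so these are not printed.
Dpp7, chr2:25356363-25356442, minus strand: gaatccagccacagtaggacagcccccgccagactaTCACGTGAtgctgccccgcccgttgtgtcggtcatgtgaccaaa
Ctsa, chr2:164833724-164833772, plus strand: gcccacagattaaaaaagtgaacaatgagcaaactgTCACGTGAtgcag
Ctsd, chr7:142387883-142387962, minus strand: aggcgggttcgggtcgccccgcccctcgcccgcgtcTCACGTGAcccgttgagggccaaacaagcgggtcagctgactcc
Gla, chrX:134601157-134601255, minus strand: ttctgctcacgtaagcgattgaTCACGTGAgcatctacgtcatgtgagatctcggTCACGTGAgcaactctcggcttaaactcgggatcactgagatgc
Mcoln1, chr8:3500437-3500516, plus strand: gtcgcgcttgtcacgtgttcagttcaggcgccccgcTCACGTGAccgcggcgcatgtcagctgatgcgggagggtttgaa
Atp6v1a, chr16:44139348-44139427, minus strand: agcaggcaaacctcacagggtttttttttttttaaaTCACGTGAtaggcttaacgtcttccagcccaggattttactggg

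Lamp1 and Atp6v0b held several copies of the shorter core and no TCACGTGA. The last 100 bases before their start sites are shown with CACGTG in capitals, 4 copies in Lamp1 and 2 in Atp6v0b.
Lamp1, chr8:13159061-13159160, plus strand: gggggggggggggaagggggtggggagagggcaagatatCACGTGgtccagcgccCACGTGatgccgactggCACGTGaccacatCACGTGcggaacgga
Atp6v0b, chr4:117887330-117887429, minus strand: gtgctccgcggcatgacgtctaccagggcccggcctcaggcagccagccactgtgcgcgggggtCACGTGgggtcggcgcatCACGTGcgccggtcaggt

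No CACGTG occurred in the entries of Neu1 and Gabarap, which had the most negative log2 fold changes among hydrolases and among autophagy genes. Dpp7, which holds TCACGTGA, had the same log2 fold change as Gabarap, −0.46, and CACGTG occurred in 0 of 4 autophagy genes with an entry. The 250 bases before the start sites of Neu1 and Gabarap are shown for comparison.
Neu1, chr17:34931003-34931252, plus strand: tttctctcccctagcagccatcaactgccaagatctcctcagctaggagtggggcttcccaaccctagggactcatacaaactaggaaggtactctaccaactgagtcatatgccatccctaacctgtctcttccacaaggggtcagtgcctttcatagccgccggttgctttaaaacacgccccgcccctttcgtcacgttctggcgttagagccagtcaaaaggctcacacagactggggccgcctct
Gabarap, chr11:69991120-69991369, plus strand: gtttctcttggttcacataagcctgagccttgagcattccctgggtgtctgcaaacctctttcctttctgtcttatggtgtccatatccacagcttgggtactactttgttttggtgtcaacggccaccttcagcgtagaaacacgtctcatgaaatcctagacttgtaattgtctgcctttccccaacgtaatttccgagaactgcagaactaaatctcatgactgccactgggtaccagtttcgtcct

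The comparison asked how these genes differed in the osteoblast line when macrophage supernatant was present. No member passed the edgeR quasi-likelihood test at a Benjamini-Hochberg adjusted p under 0.05, where 0.0165% of the 18177 tested genes did. Log2 fold changes (supernatant over PEEK alone) were negative for 33 of 36 members, against 51.7% of all tested genes, and only Ctsz, Glb1 and Map1lc3a had positive ones. At an unadjusted p under 0.05, 14 members were lower with supernatant and 0 higher, against 4.3% and 4.65% of tested genes. For 13 members every library with supernatant lay below every library on PEEK alone, and for 0 above, against 7.36% and 7.83% of tested genes. Among the 7920 tested genes with a mean of at least 5 FPKM the shares were 50.3% negative, 5.71% lower at an unadjusted p under 0.05, and 8.4% with every supernatant library below. DESeq2 called 6 members lower (Tpp1, Asah1, Dpp7, Ctso, Neu1 and Gabarap, adjusted p 0.0286 to 0.0497) and 0 higher, against 0.608% of genes called lower. The members were chosen with earlier results of these data known, so these counts describe them and are no independent support for a difference. In bulk RNA, fewer cells of a type and less RNA per cell cannot be told apart.

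The DESeq2 calls depended on the libraries, for the members and for all genes. Without replicate 1 with supernatant 10 members were called lower, against 4.29% of all genes, and without replicate 1 on PEEK alone 11 members, against 1.46%. Without replicate 2 or replicate 3 with supernatant 0 and 1 members were called lower, against 0.217% and 0.369% of all genes. Without replicate 2 or replicate 3 on PEEK alone the count was 0 in both fits, against 0.146% and 0.127%.

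With edgeR 0 members passed the adjusted threshold whichever library was left out. At an unadjusted p under 0.05, 13, 10 and 11 members were lower without replicates 1, 2 and 3 with supernatant, against 7.9%, 2.88% and 3.46% of tested genes. Without replicates 1, 2 and 3 on PEEK alone the members numbered 16, 8 and 8, against 5.22%, 2.23% and 2.37% of tested genes.

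**Figure D2:**
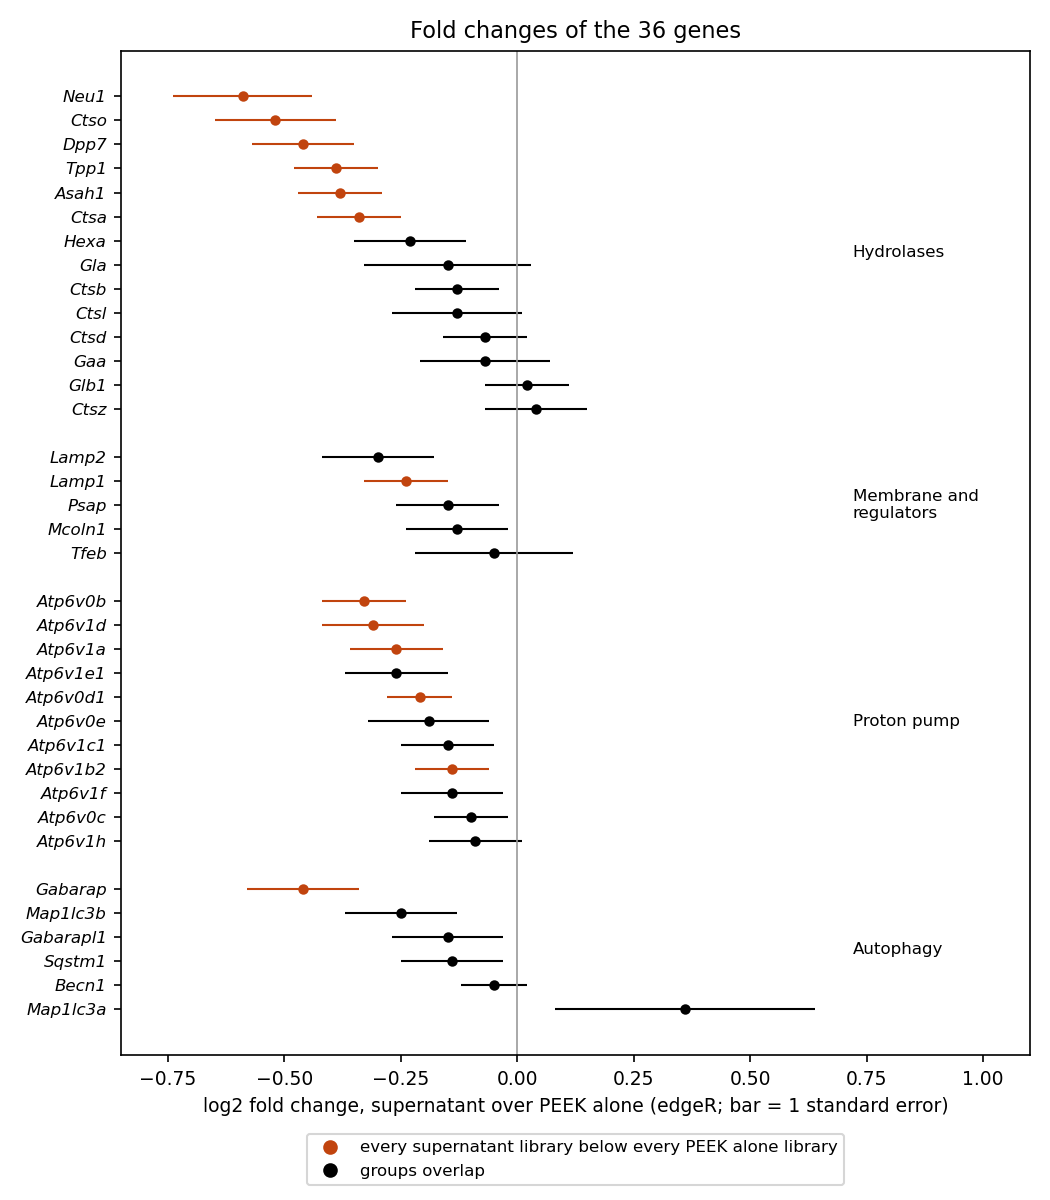
Log2 fold changes of the 36 genes, supernatant over PEEK alone, from edgeR with 1 standard error, by gene group. Coloured points mark the 13 genes whose libraries with supernatant all lay below those on PEEK alone; 33 of 36 points are left of 0, and Map1lc3a has the widest error.

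Hydrolases had a median log2 fold change of −0.19 (14 members), against −0.01 over all tested genes, with 12 negative. Values per library are counts per 1000000 of the scaled library size (CPM). Tpp1, a peptidase that trims tripeptides from protein ends (ENSMUSG00000030894, chromosome 7, 105394018 to 105401442, minus strand), had 97.5, 94.5 and 96.3 CPM in replicates 1, 2 and 3 with supernatant, against 119, 141 and 117 CPM on PEEK alone. The 3 supernatant libraries were nearly equal and all lay below the lowest library on PEEK alone. Its log2 fold change was −0.39 (SE 0.09, edgeR adjusted p = 0.274). Asah1, the acid ceramidase (ENSMUSG00000031591, chromosome 8, 41793234 to 41827810, minus strand), had 128, 149 and 143 CPM in replicates 1, 2 and 3 with supernatant, against 168, 193 and 185 CPM on PEEK alone. Replicate 1 was the lowest library within each group, the groups did not overlap, and the log2 fold change was −0.38 (SE 0.09, edgeR adjusted p = 0.287). Gene coordinates are printed as the authors gave them, and the sources used here do not name their build.

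Dpp7, a dipeptidyl peptidase (ENSMUSG00000026958, chromosome 2, 25242288 to 25246371, minus strand), had 39.5, 32.6 and 41.9 CPM in replicates 1, 2 and 3 with supernatant, against 47.2, 55.0 and 54.1 CPM on PEEK alone. The groups lay apart, with a log2 fold change of −0.46 (SE 0.11, edgeR adjusted p = 0.305). Ctso, a cysteine cathepsin of low level here (ENSMUSG00000028015, chromosome 3, 81839908 to 81864032, plus strand), had 14.8, 14.03 and 13.4 CPM in replicates 1, 2 and 3 with supernatant, against 16.8, 22.7 and 21.1 CPM on PEEK alone. The supernatant libraries lay close together and all below those on PEEK alone, and the log2 fold change was −0.52 (SE 0.13, edgeR adjusted p = 0.308). Neu1, the sialidase that removes sialic acid from glycans (ENSMUSG00000007038, chromosome 17, 35150229 to 35154929, plus strand), had 18.8, 14.5 and 13.9 CPM in replicates 1, 2 and 3 with supernatant, against 20.2, 25.4 and 25.3 CPM on PEEK alone. Its log2 fold change of −0.59 (SE 0.15, edgeR adjusted p = 0.308) was the most negative of the 36, although replicate 1 with supernatant came near the lowest library on PEEK alone.

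The most abundant hydrolases had log2 fold changes nearer to 0. Ctsd had 312, 287 and 304 CPM in replicates 1, 2 and 3 with supernatant, against 284, 337 and 328 CPM on PEEK alone, and these ranges overlapped, with a log2 fold change of −0.07 (SE 0.09, edgeR adjusted p = 0.859). Gaa had 528, 366 and 397 CPM in replicates 1, 2 and 3 with supernatant, against 423, 497 and 436 CPM on PEEK alone. Its replicate 1 with supernatant was the highest of all 6 libraries, while replicates 2 and 3 were the lowest, and the log2 fold change was −0.07 (SE 0.14, edgeR adjusted p = 0.917). Of the 7 other hydrolases, Ctsa, the protective protein that stabilizes the sialidase, was the 1 with no overlap (log2 fold change −0.34, SE 0.09). The others had −0.23 for Hexa, a subunit of beta-hexosaminidase, −0.15 for the alpha-galactosidase gene Gla, −0.13 and −0.13 for the cysteine cathepsins Ctsb and Ctsl, 0.04 for the carboxypeptidase Ctsz and 0.02 for the beta-galactosidase Glb1, with standard errors of 0.09 to 0.18. Leaving out single libraries turned the direction for Gaa, Ctsz and Glb1.

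Membrane proteins and regulators had a median log2 fold change of −0.15, negative in all 5. Lamp1 (ENSMUSG00000031447, chromosome 8, 13209161 to 13225338, plus strand) had 636, 669 and 743 CPM in replicates 1, 2 and 3 with supernatant, against 778, 816 and 828 CPM on PEEK alone. Replicate 3 with supernatant was the closest to PEEK alone, without overlap, and the log2 fold change was −0.24 (SE 0.09, edgeR adjusted p = 0.488). Lamp2, a related protein with an isoform needed for chaperone-mediated autophagy, had 507, 559 and 521 CPM in replicates 1, 2 and 3 with supernatant, against 544, 721 and 697 CPM on PEEK alone. Replicate 1 on PEEK alone lay inside the supernatant range, and the log2 fold change was −0.30 (SE 0.12, edgeR adjusted p = 0.499). Psap had 1377, 1099 and 1180 CPM in replicates 1, 2 and 3 with supernatant, against 1276, 1420 and 1360 CPM on PEEK alone, so that replicate 1 with supernatant was above the lowest library on PEEK alone, with a log2 fold change of −0.15 (SE 0.11, edgeR adjusted p = 0.732). Mcoln1 had a log2 fold change of −0.13 (SE 0.11). Tfeb had 4.92, 4.39 and 4.17 CPM in replicates 1, 2 and 3 with supernatant, against 5.28, 4.50 and 4.14 CPM on PEEK alone, fully overlapping, with a log2 fold change of −0.05 (SE 0.17, edgeR adjusted p = 0.959). Its counts were 325 to 409 per library, the fewest of the 36 genes, and the sign turned when single libraries were left out.

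**Figure D3:**
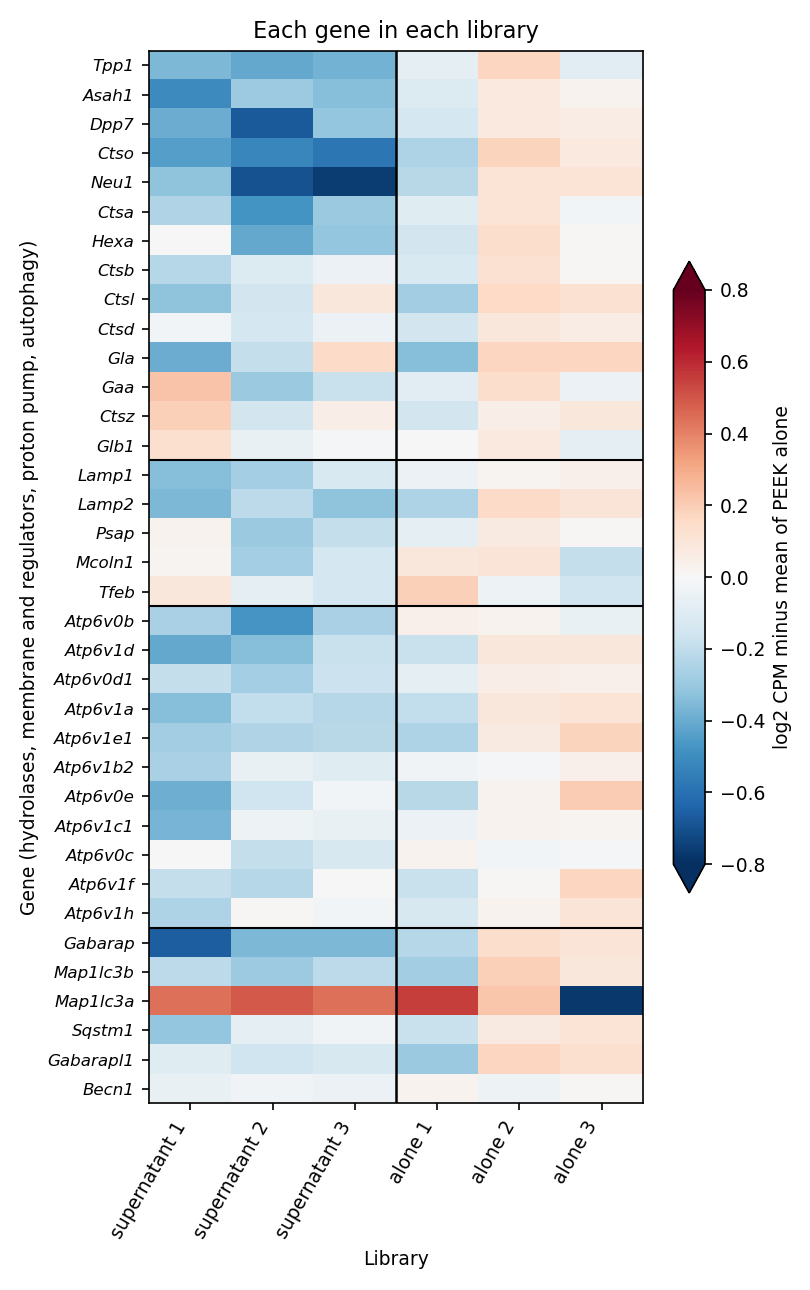
Log2 CPM of each gene in each library minus the mean of PEEK alone, blue below and red above, with the 3 libraries with supernatant on the left. Most genes are blue in the 3 left columns, replicate 1 on PEEK alone is paler blue for many, and Map1lc3a runs the other way with 1 very low library on PEEK alone.

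All 11 pump subunits had a negative log2 fold change, from −0.33 to −0.09, with a median of −0.19. In the membrane sector, Atp6v0b, a subunit of the proton-carrying ring (ENSMUSG00000033379, chromosome 4, 117741523 to 117744530, minus strand), had 57.2, 49.5 and 57.5 CPM in replicates 1, 2 and 3 with supernatant, against 70.5, 70.0 and 65.9 CPM on PEEK alone. The groups lay apart, and the log2 fold change was −0.33 (SE 0.09, edgeR adjusted p = 0.314). Atp6v0d1, which links the ring to the central stalk, had 82.3, 78.0 and 83.6 CPM in replicates 1, 2 and 3 with supernatant, against 88.6, 97.2 and 96.4 CPM on PEEK alone. These groups also lay apart, with a log2 fold change of −0.21 (SE 0.07, edgeR adjusted p = 0.480). The ring subunit Atp6v0c and the small subunit Atp6v0e had −0.10 and −0.19.

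In the soluble sector, Atp6v1d, a central stalk subunit, had 34.2, 35.9 and 40.1 CPM in replicates 1, 2 and 3 with supernatant, against 40.2, 48.3 and 48.4 CPM on PEEK alone. Replicate 3 with supernatant and replicate 1 on PEEK alone nearly met, and the log2 fold change was −0.31 (SE 0.11, edgeR adjusted p = 0.453). Atp6v1a, the subunit that splits ATP, had 152, 167 and 164 CPM in replicates 1, 2 and 3 with supernatant, against 168, 204 and 208 CPM on PEEK alone. Its nearest libraries were equally close, and the log2 fold change was −0.26 (SE 0.10, edgeR adjusted p = 0.498). Atp6v1e1, part of the peripheral stalks, had 76.2, 77.9 and 79.2 CPM in replicates 1, 2 and 3 with supernatant, against 77.5, 97.1 and 105 CPM on PEEK alone. Replicate 1 on PEEK alone lay inside the supernatant range, and the log2 fold change was −0.26 (SE 0.11, edgeR adjusted p = 0.545). Atp6v1f was the most abundant soluble-sector subunit per length among the members. It had 38.9, 37.6 and 44.3 CPM in replicates 1, 2 and 3 with supernatant, against 38.9, 44.5 and 49.9 CPM on PEEK alone. These ranges overlapped, with a log2 fold change of −0.14 (SE 0.11, edgeR adjusted p = 0.763). The remaining subunits had −0.14 (Atp6v1b2, which forms the ATP-splitting head with Atp6v1a and whose groups did not overlap), −0.15 (Atp6v1c1, which ties the stalks to the membrane sector) and −0.09 (Atp6v1h, a regulatory subunit), with standard errors of 0.08 to 0.10.

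Autophagy genes had a median log2 fold change of −0.14, with 5 of 6 negative and the widest range, −0.46 to 0.36. Gabarap, a ubiquitin-like protein joined to autophagosome membranes (ENSMUSG00000018567, chromosome 11, 69881969 to 69885777, plus strand), had 166, 204 and 203 CPM in replicates 1, 2 and 3 with supernatant, against 222, 287 and 279.6 CPM on PEEK alone. The groups did not overlap, replicate 1 was the lowest library within each, and the log2 fold change was −0.46 (SE 0.12, edgeR adjusted p = 0.332). Map1lc3b, the LC3 protein used as the common autophagosome marker, had 158, 149 and 157 CPM in replicates 1, 2 and 3 with supernatant, against 150.0, 207 and 194 CPM on PEEK alone. Replicate 1 on PEEK alone lay inside the supernatant range, with a log2 fold change of −0.25 (SE 0.12, edgeR adjusted p = 0.596).

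Map1lc3a, its close relative, had 18.9, 19.7 and 19.0 CPM in replicates 1, 2 and 3 with supernatant, against 20.5, 16.3 and 8.19 CPM on PEEK alone. The supernatant libraries were nearly equal, whereas those on PEEK alone spread from the highest to the lowest of all 6. Its log2 fold change was 0.36 (SE 0.28, edgeR adjusted p = 0.759), and it was 0.06 when replicate 3 on PEEK alone, the library with 643 counts, was left out. Sqstm1, which carries ubiquitinated cargo to the autophagosome, had 390.3, 459.5 and 472 CPM in replicates 1, 2 and 3 with supernatant, against 426, 506 and 521 CPM on PEEK alone, which overlapped, with a log2 fold change of −0.14 (SE 0.11, edgeR adjusted p = 0.768). Gabarapl1, a relative of Gabarap, and the initiation factor gene Becn1 had −0.15 and −0.05, the second with a standard error of 0.07.

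Library by library, the hydrolase median (log2 CPM minus the mean of PEEK alone) was −0.28, −0.29 and −0.24 in replicates 1, 2 and 3 with supernatant, against −0.14, 0.11 and 0.04 on PEEK alone. For the pump it was −0.26, −0.20 and −0.13 with supernatant, against −0.13, 0.03 and 0.09 on PEEK alone, so that the groups met at 1 library. Membrane and regulator genes had 0.02, −0.27 and −0.14 with supernatant, against −0.05, 0.07 and 0.01 on PEEK alone. Autophagy genes had −0.15, −0.12 and −0.09 with supernatant, against −0.21, 0.15 and 0.10 on PEEK alone. The median over all tested genes stayed between −0.01 and 0.02.

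For these genes replicate 1 on PEEK alone thus lay nearest to the supernatant libraries. It was the lowest library on PEEK alone for 28 of 36 members (77.8%), against 37.4% of all tested genes. The supernatant mean was below it for 23 of 36 members, and every supernatant library for 18. No share over all tested genes is given for these counts. Without replicate 1 on PEEK alone the hydrolase median log2 fold change was −0.29 and the autophagy median −0.24. Without replicate 2 on PEEK alone they were −0.12 and −0.09, and without replicate 3 on PEEK alone −0.18 and −0.08. Without replicate 1 with supernatant they were −0.27 and −0.10, and 34 of 36 members had a negative log2 fold change. The part of replicate 1 on PEEK alone in the spread of the controls was not tested. As a share of all counts, the 36 genes took 0.658, 0.605 and 0.64% with supernatant, against 0.664, 0.759 and 0.736% on PEEK alone. As a share of summed FPKM they took 0.721, 0.604 and 0.666% with supernatant, against 0.687, 0.755 and 0.721% on PEEK alone, and there the groups overlapped.

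**Figure D4:**
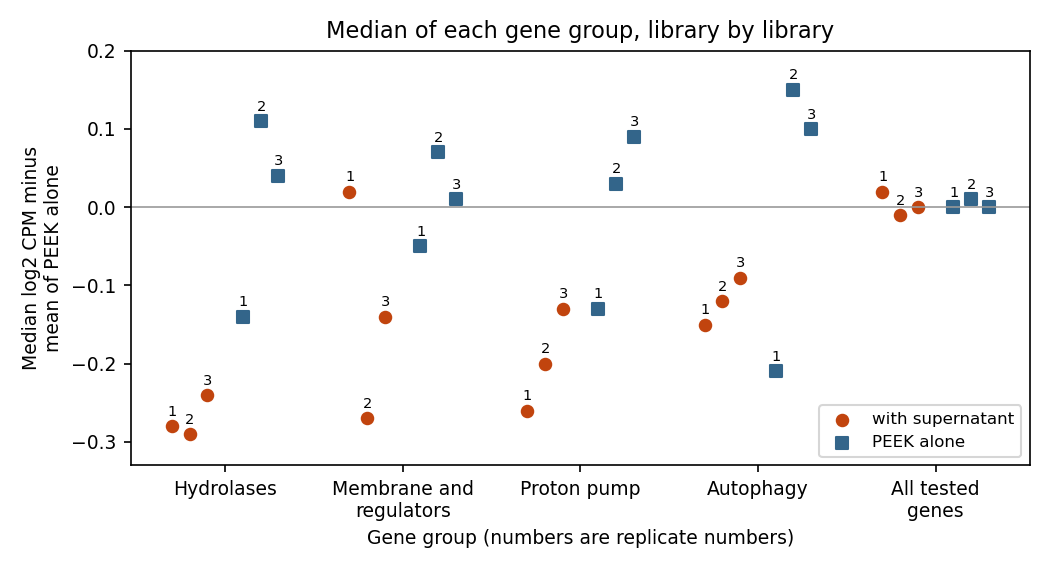
Median over each gene group of log2 CPM minus the mean of PEEK alone, with 1 point per library and its replicate number, circles with supernatant and squares on PEEK alone. The hydrolase medians with supernatant (−0.29 to −0.24) lie below all 3 on PEEK alone (−0.14 to 0.11), whereas for autophagy genes replicate 1 on PEEK alone, at −0.21, is the lowest of the 6.

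The promoter letters can be set beside the fold changes. The 8 members with TCACGTGA had a median log2 fold change of −0.20 (−0.46 to −0.07), and the 21 with an entry but without it −0.23 (−0.59 to 0.04). For CACGTG the medians were −0.19 in 13 members with it and −0.24 in 16 without. These are descriptions with no test.

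Other genes of the same pathways gave 0 edgeR calls and 0 DESeq2 calls in all 4 lists. Over the whole table edgeR called 0.0165% of tested genes and DESeq2 called 0.608% of genes lower. At these shares lists of this size would hold few calls. Laptm4a and Flcn, described below, had DESeq2 adjusted p of 0.054 and 0.0552, just above the threshold of 0.05. Over all tested genes, 51.7% had a negative log2 fold change, and 4.3% were lower and 4.65% higher at an unadjusted p under 0.05. Of 32 other hydrolases tested, 23 had a negative log2 fold change (median −0.11), with 5 lower and 0 higher at an unadjusted p under 0.05. The smallest p belonged to Ppt1, the palmitoyl-protein thioesterase, which had 106, 88.1 and 94.8 CPM in replicates 1, 2 and 3 with supernatant, against 112, 141 and 123 CPM on PEEK alone and a log2 fold change of −0.38 (SE 0.11, edgeR adjusted p = 0.375). Among 38 other genes of the lysosomal membrane, enzyme sorting and nutrient signalling, 33 were negative (median −0.19), with 10 lower and 1 higher at an unadjusted p under 0.05. The membrane protein gene Laptm4a had 261, 264 and 272 CPM in replicates 1, 2 and 3 with supernatant, against 309.6, 346 and 338 CPM on PEEK alone, without overlap, and a log2 fold change of −0.32 (SE 0.08, edgeR adjusted p = 0.290). Flcn, which encodes folliculin, a regulator of Rag GTPases and of TFEB, had 82.7, 82.6 and 89.9 CPM in replicates 1, 2 and 3 with supernatant, against 96.7, 126 and 118 CPM on PEEK alone, also without overlap, and a log2 fold change of −0.42 (SE 0.11, edgeR adjusted p = 0.308).

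Of 14 other pump genes tested, 9 were negative (median −0.09), with 1 lower and 0 higher at an unadjusted p under 0.05. The accessory genes Atp6ap2 and Atp6ap1 had −0.24 (SE 0.10) and −0.17 (SE 0.09). Of 39 other autophagy genes, 22 were negative (median −0.02), with 2 lower and 1 higher at an unadjusted p under 0.05, which is near the shares over all tested genes. Vmp1, a membrane protein of early autophagosomes, had −0.26 (SE 0.08), and Bnip3, a mitophagy receptor, −0.34 (SE 0.13). Differences between the lists were not tested.

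**Figure D5:**
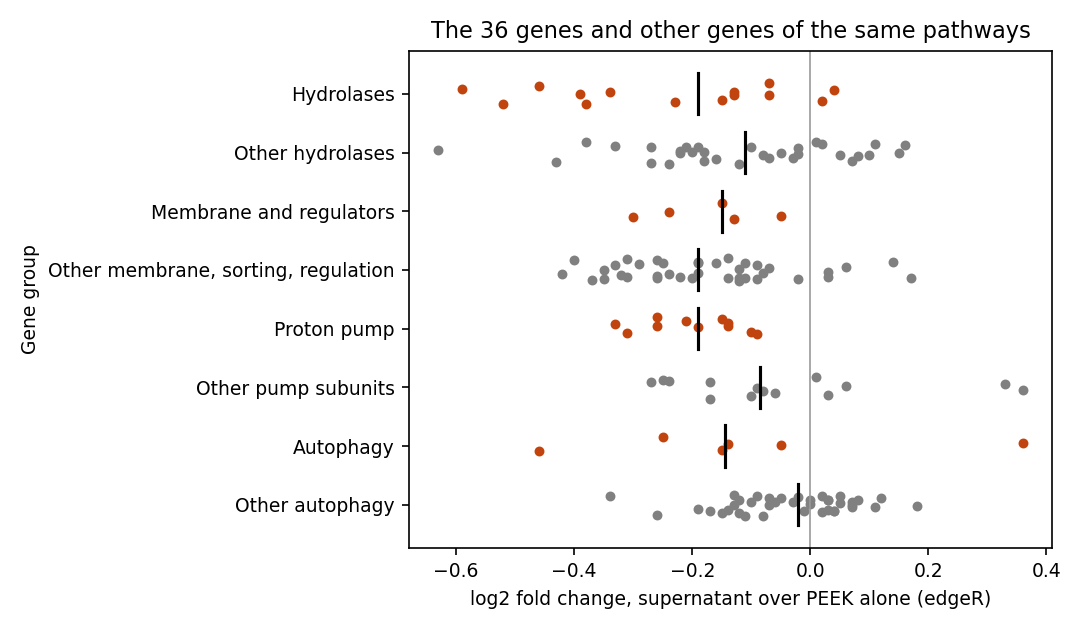
Log2 fold changes (supernatant over PEEK alone, edgeR) of the 36 genes, coloured, and of other genes of the same pathways, grey, with a line at each median. The lists of hydrolases, membrane genes and pump subunits lie mostly left of 0, and the 39 other autophagy genes are centred near 0 at −0.02.

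Some values share reads or positions with other genes. Atp6v0c had a mean of 6788 counts and its pseudogene Atp6v0c-ps2 4412, and the counts of both are uncertain, since reads of near-identical copies can be split between them. Zcchc14, which overlaps Map1lc3b on the opposite strand, had 109% of its counts, Nelfcd 55.7% of those of Ctsz, Fdft1 25.5% of those of Ctsb and Pltp 10.1% of those of Ctsa. Tmppe overlaps Glb1 on the same strand with 21% of its counts. The library protocol marks strand, but the sources used here do not say whether counting used it. Of the 6 members that DESeq2 called, none overlapped another gene of the table.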

How the data were processed

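The authors deposited 1 table that holds raw counts and FPKM for every gene in each library, per the file headers. HISAT2 2.2.1 and cutadapt 1.9 appear in the submitters' processing notes. Build, annotation, counter and handling of strand and molecular identifiers were not given in the sources used here. Groups follow the treatment label, replicate numbers the library names. Members and gene lists were chosen with earlier results of these data known.

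Deposited counts were tested over all genes with edgeR 4.0.16 (R 4.3.3): TMM, filterByExpr (minimum count 10, total 15; 18177 genes kept), quasi-likelihood test with group as the only term, and calls at a Benjamini-Hochberg adjusted p under 0.05. A standard error is the fold change over the square root of F. CPM are counts per 1000000 of TMM-scaled library size. Log2 CPM had a prior count of 2. FPKM served to compare levels. No 2 libraries were identical, and pairs of libraries had a chi-square of 25.4 to 112 per gene. DESeq2 1.42.0, limma 3.58.1, other scalings and filters, a replicate block and leaving out each library were alternatives. Named within each group were the members of smallest p (5, 3, 5 and 3), the 2 of highest mean FPKM and Tfeb; of the other lists, at most 2 of smallest p, of which 1 is not reported here. Promoters are RefSeq entries of GRCm38.p6, matched by symbol.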

Additional observations from a re-analysis of the deposited data

How the results depend on the processing

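All numbers without a tool named are from edgeR. Genes called over the whole table, 2 higher and 1 lower, became 168 higher and 126 lower with DESeq2, 0 and 0 without the low-count filter, with the replicate block, with limma without an FPKM filter and at an adjusted p under 0.01, 13 and 7 at an adjusted p under 0.1, and 3 and 0 with limma on log2(FPKM + 0.1). Members called lower numbered 6 with DESeq2 and 0 under every other alternative with all 6 libraries. When single libraries were left out, edgeR called 0 to 133 genes higher and 0 to 66 lower, and DESeq2 59 to 797 higher, 28 to 584 lower and 0 to 11 members lower; leaving out libraries with DESeq2, unlike its fit to all 6, was chosen after seeing the data. The members lower at an unadjusted p under 0.05 then numbered 8 to 16 with edgeR, against 2.23% to 7.9% of tested genes, and 8 to 17 with DESeq2. At this threshold no share over all genes is given for DESeq2 or for the replicate block, so those member counts cannot be read against it. Members with a negative log2 fold change numbered 32 to 34 in all alternatives. The medians of all 4 gene groups stayed negative: −0.29 to −0.11 for hydrolases, −0.22 to −0.07 for membrane genes and regulators, −0.25 to −0.13 for the pump and −0.24 to −0.08 for autophagy genes. The log2 fold change changed sign or reached 0.00 when single libraries were left out for Ctsz (−0.04 to 0.13), Glb1 (−0.03 to 0.07), Gaa (−0.24 to 0.04), Atp6v1h (−0.14 to 0.00) and Tfeb (−0.12 to 0.06); the cause was not tested. Deviations of same-numbered libraries from their group means correlated at −0.03, −0.01 and 0.02, and numbers were therefore not taken to pair libraries; with the replicate block 13 members were lower at an unadjusted p under 0.05, and 0 were called.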
